A study of Homo sapiens with 6 samples.

Results

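A total of 10 genes of the bone morphogenetic protein (BMP) and activin axis were followed in MCF10A cells, an established line of non-tumorigenic human mammary epithelial cells, out of 19198 genes in the table. They are the ligands BMP4 and BMP5, the antagonist FST, the receptors ACVR1C, BMPR1A and BMPR2, the inhibitory SMAD6, and the target genes ID1, ID2 and ID3, taken by symbol from a list. In the deposited RNA-Seq, 3 samples had been grown with growth factors (control) and 3 without (depleted), and all 6 were in medium with 5% horse serum. The series' own description gives 2 replicates per condition, while the labels and the table list 3, which were used. By the study's methods depletion lasted until the cells had changed shape, without a stated day for the RNA samples. The control medium also held insulin at 10 µg/ml, EGF at 20 ng/ml, cholera toxin at 100 ng/ml and hydrocortisone at 0.5 µg/ml, and the depleted medium lacked all 4. All the agents were withdrawn together, so their separate parts cannot be told apart. The labels do not say that the samples of a condition came from separate cultures, and the p-values then measure only the spread between these samples, which may be technical.

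BMPs and activins are secreted dimers of the TGFβ superfamily that bring together type I and type II serine/threonine kinase receptors. BMP receptors phosphorylate SMAD1, SMAD5 and SMAD9, which enter the nucleus with SMAD4 and turn on ID genes and the inhibitory SMADs, while activin receptors act through SMAD2 and SMAD3. ID proteins are helix-loop-helix proteins without a DNA-binding region that capture the E proteins made from TCF3, TCF4 and TCF12, and in mammary epithelium ID1 is known for holding back differentiation and ID2 for its need in lobuloalveolar development.

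Promoter sequences are shown for the ligands with the largest differences in either direction and for the 3 ID genes, which are well-known transcriptional targets of BMP signaling. They come from RefSeq on GRCh38.p14 and run 5′ to 3′ on the strand of the gene, from 250 bases before the start site to 50 after it. All 10 genes matched an entry. Capitals mark 4 searched motifs on either strand, which are GGCGCC, the CCAAT box, the TGACG stretch of a cAMP response element and the TATAAA box, so that a match may appear as its reverse complement.
ID1, chr20:31605039-31605338, plus strand: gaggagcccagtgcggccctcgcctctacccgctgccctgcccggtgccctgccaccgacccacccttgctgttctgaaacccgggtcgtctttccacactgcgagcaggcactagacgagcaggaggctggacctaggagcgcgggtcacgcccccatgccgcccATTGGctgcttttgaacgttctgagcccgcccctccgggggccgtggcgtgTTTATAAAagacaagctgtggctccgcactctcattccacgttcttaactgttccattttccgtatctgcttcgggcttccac
ID2, chr2:8681806-8682105, plus strand: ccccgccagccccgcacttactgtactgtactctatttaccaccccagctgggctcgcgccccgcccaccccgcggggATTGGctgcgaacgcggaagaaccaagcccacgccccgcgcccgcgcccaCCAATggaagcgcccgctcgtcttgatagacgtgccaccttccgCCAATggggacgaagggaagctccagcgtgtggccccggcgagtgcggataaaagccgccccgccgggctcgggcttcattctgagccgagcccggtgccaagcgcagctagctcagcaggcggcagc
ID3, chr1:23559452-23559751, minus strand: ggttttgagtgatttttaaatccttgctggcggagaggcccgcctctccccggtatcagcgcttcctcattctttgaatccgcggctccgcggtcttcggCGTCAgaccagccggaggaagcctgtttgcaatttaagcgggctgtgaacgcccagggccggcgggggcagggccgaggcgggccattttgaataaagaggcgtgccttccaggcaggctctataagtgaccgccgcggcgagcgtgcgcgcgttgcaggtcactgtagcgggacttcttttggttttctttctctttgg
BMP4, 1 of 3 RefSeq starts, chr14:53955001-53955300, minus strand: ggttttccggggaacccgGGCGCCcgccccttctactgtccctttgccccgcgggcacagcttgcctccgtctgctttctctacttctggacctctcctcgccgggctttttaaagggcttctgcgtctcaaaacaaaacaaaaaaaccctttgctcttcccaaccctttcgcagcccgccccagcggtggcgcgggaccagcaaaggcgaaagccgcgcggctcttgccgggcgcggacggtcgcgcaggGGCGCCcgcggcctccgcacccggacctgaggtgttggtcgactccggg
BMP5, chr6:55875541-55875840, minus strand: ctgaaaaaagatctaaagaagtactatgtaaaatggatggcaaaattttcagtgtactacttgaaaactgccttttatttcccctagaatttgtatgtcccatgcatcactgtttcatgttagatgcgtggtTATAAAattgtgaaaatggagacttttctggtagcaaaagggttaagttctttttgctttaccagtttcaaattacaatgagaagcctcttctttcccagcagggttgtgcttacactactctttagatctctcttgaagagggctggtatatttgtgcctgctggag

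The 5 sequences differ in composition, from 37.3% G and C in BMP5 to 69% in ID2. ID2 holds CCAAT 3 times, ID1 holds it 1 time with overlapping matches to TATAAA that begin 33 and 31 bases before the start, and ID3 holds a single match to TGACG. The BMP4 window shown holds GGCGCC 2 times, while the other BMP4 windows, not shown, hold none of the 4 motifs. The BMP5 window holds TATAAA at 118 bases before the start. Of 35116 RefSeq promoters of the same length, 19.2% hold GGCGCC, 34.6% CCAAT, 24.6% TGACG and 11.5% TATAAA, so each motif is common, and a match describes the letters only.

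The values are normalized counts, that is, reads on a gene divided by the sample's DESeq2 size factor. Depth ran from 7472418 to 28672630 reads on genes, at which 3 reads come to 1.76 to 6.71 normalized counts. The conditions were compared with limma on log2(normalized count + 1) for 16988 genes whose mean reached 10, and a gene counts as called when its Benjamini-Hochberg adjusted p lay under 0.05 and its change reached 2-fold. Fold changes in log2 are depleted minus control on that scale, which understates low genes. Depleted replicate 1 stood apart in epithelial markers, with 609.6 normalized counts of CDH1 against 12961 to 20039 in the other 5 samples. EPCAM, KRT5 and TP63 were also lowest in that sample, whereas KRT14 was highest there and KRT18 was second only to depleted replicate 3. The labels describe the cells as luminal ductal, whereas the study calls MCF10A cells normal-like basal. The 6 epithelial, 6 luminal and 5 basal markers listed were all above the 3-read floor in every sample. A fibroblast list moved with the condition, summing to 225 to 451 normalized counts in control and 9957 to 33378 in depleted samples, with 4 of 8 genes above the floor in all control samples and 7 of 8 in all depleted samples. The sums of 4 endothelial markers were 167 to 1787 in control and 265 to 1610 in depleted samples, with 3 of 4 above the floor in all control and 2 of 4 in all depleted samples. Of 4 immune markers 2 were in the table, with sums of 272 to 884 in control and 86.5 to 656 in depleted samples. These 2 went opposite ways on average. PTPRC, which defines leukocytes, was at 0 to 1.97 in control and 10.1 to 13.8 in depleted samples. CD14 made up most of the sums, at 270.5 to 882.3 in control and 72.8 to 646.2 in depleted samples, with overlap. The part of these markers in the results was not tested. Deviations in a sample also went with exon length, with Spearman's rho across 13035 genes lowest in control replicate 2, at -0.43, and highest in control replicate 3, at 0.41, against -0.015 for the difference between conditions.

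Among the 10 genes, the ligands BMP4 and BMP5 held the largest differences, followed by FST and ACVR1C. BMP4, FST and ACVR1C were higher without growth factors, BMP5 and ID2 were lower, and BMPR1A, BMPR2, SMAD6, ID1 and ID3 did not pass the test. So 3 of 10 genes were called higher, where 4.36% of all genes tested were, and 2 of 10 lower, where 1.97% were. The median log2 fold change of the 10 genes was -0.18 and that of all genes -0.03. All 10 passed the minimum mean. Without depleted replicate 1 the same 5 genes were called, with log2 fold changes of 5.66 for BMP4, 4.04 for FST, 4.22 for ACVR1C, -5.67 for BMP5 and -2.37 for ID2. Since the genes were chosen with results of these data known, these counts are a description. In these bulk samples, fewer cells of a type and less RNA per cell cannot be told apart.

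**Figure D1:**
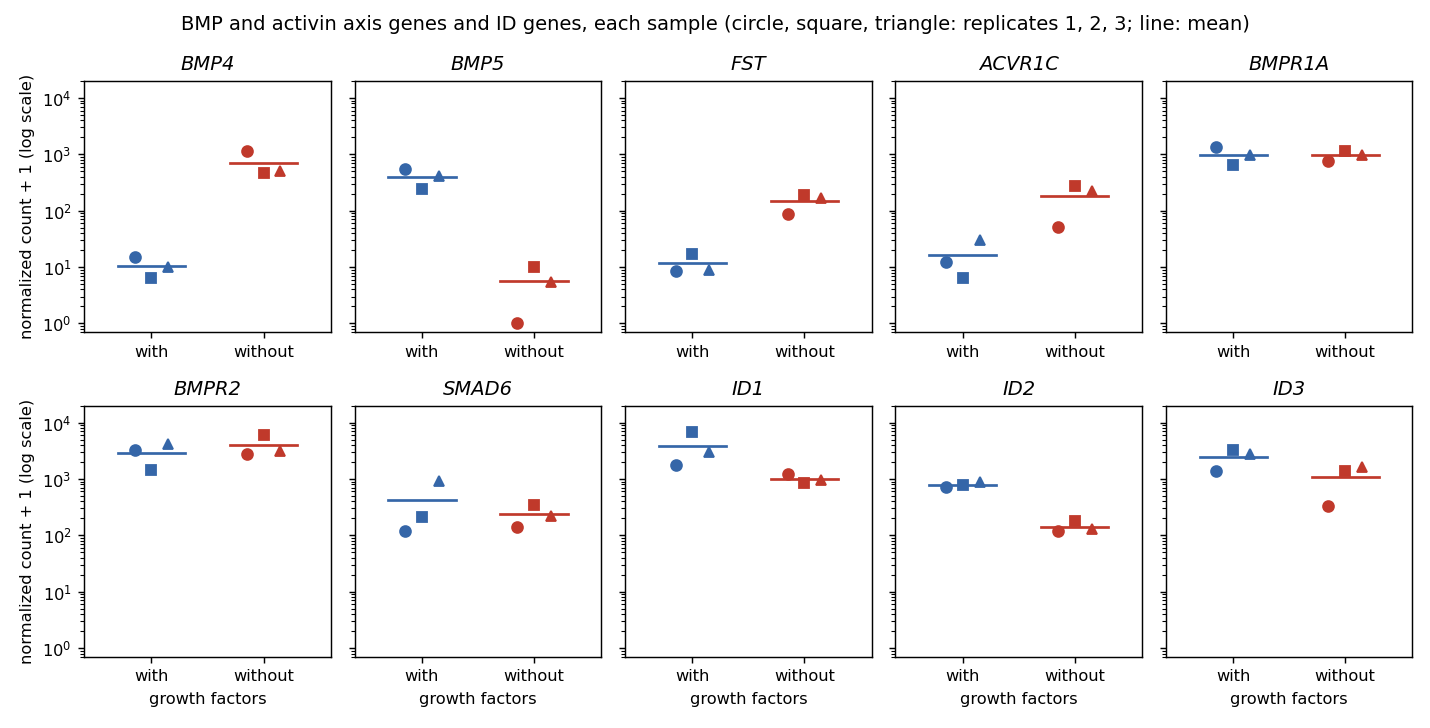
Normalized count + 1 on a log scale for each of the 10 genes in the 3 samples with growth factors (blue) and the 3 without (red), with circle, square and triangle for replicates 1, 2 and 3 and a line at the mean. The groups lie apart in BMP4, BMP5, FST, ACVR1C, ID1 and ID2 and overlap in the other 4 genes.

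BMP4, a BMP ligand with roles in mammary bud formation and in stem cell differentiation, went from near the detection floor to a level clear of it in every sample. Its level was 13.8, 5.27 and 8.85 normalized counts in control samples 1 to 3, from 11, 9 and 9 reads, and 1162, 470.8 and 512 in depleted samples 1 to 3, from 1270, 718 and 229 reads. The lowest depleted sample was far above the highest control sample, and depleted replicate 1 was the highest of the 3. The mean rose 76.9-fold, from 9.3 ± 4.27 to 715.1 ± 388 (SD, n = 3 per group), a log2 fold change of 6.08 ± 0.53 (SE) with an adjusted p of 0.00076. Among all genes tested it ranked 44 by p. The call was made in all 6 fits that each left out a sample, with log2 fold changes of 5.66 to 6.38. The gene lies on chromosome 14 at 53949736 to 53958761 of hg38, on the minus strand, and 16.3% of its exon bases are shared with an unnamed gene on the opposite strand that was not analysed here.

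BMP5, a ligand of another BMP subgroup, moved the opposite way. Its normalized counts were 556.4, 240.2 and 410.2 in control samples, from 444, 410 and 417 reads, and 0, 9.18 and 4.47 in depleted samples, from 0, 14 and 2 reads. Depleted replicate 1 had no read, which at its depth allows up to 2.75 normalized counts, and all control samples were above all depleted ones. The mean fell from 402.3 ± 158 to 4.55 ± 4.59 and was 88.4-fold higher in control samples, or 64.8-fold with the 2 depleted samples under 3 reads set to their 3-read floors. The log2 fold change was -6.64 ± 0.85 (SE), with an adjusted p of 0.0036, and the gene was called in all 6 fits without a sample. Without depleted replicate 1, the sample with no read, the value was -5.67 with an adjusted p of 0.003. BMP5 is on chromosome 6 at 55753653 to 55875590, on the minus strand.

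Per kilobase of exon, BMP5 was above BMP4 in each control sample, and BMP4 was above BMP5 in each depleted sample. Other BMP and GDF ligands gave no call. Of 17 listed, 9 were in the table and 7 were tested, of which 5 had positive and 2 negative log2 fold changes, between -0.35 and 1.44 with a median of 0.1.

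FST encodes follistatin, which binds activins and some BMPs and keeps them from their receptors. Its levels were 7.52, 16.4 and 7.87 normalized counts in control samples, from 6, 28 and 8 reads. Depleted samples had 86, 191.5 and 167.7, from 94, 292 and 75 reads. With so few control reads, the size of its fold change is imprecise. Every depleted sample was above every control sample, with depleted replicate 1 the lowest of its group. The mean rose 14-fold, from 10.6 ± 5.03 to 148.4 ± 55.3, with a log2 fold change of 3.69 ± 0.55 (SE) and an adjusted p of 0.0066. Without depleted replicate 2 the adjusted p was 0.051, while it ranged from 7.7e-09 to 0.051 over 18 alternatives. FST is on chromosome 5 at 53480626 to 53487134, on the plus strand.

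ACVR1C encodes ALK7, a type I receptor for nodal, some activins and related GDFs. It was measured at 11.3, 5.27 and 29.5 normalized counts in control samples, from 9, 9 and 30 reads. Depleted samples had 51.3, 275.4 and 221.4, from 56, 420 and 99 reads. Here too the few control reads make the size of the fold change imprecise. The groups did not overlap, but depleted replicate 1 was closer to control replicate 3 than to the other depleted samples. The mean rose 11.9-fold, from 15.4 ± 12.6 to 182.7 ± 117, and the log2 fold change was 3.47 ± 0.81 (SE), with a 95% interval of 1.62 to 5.33 and an adjusted p of 0.042. This call was close to the threshold. It was made in 2 of 6 fits without a sample and was lost without control replicate 1 (adjusted p 0.13), control replicate 2 (0.11), depleted replicate 2 (0.18) or depleted replicate 3 (0.17), within a range of 0.0001 to 0.18 over 18 alternatives. The gene is on chromosome 2 at 157526767 to 157628864, on the minus strand.

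The receptors that bind BMPs directly gave no call, and their intervals were wide. BMPR1A, a type I BMP receptor on chromosome 10 (86756596 to 86932825, plus strand), had 1346, 643.3 and 987.7 normalized counts in control samples and 746, 1145 and 992.8 in depleted samples. The groups overlapped fully. The change in log2 was -0.0042, with a 95% interval of -0.79 to 0.78 and an adjusted p of 0.998, and its sign changed with scaling, to 0.044 after rescaling to the same total and 0.080 after quantile normalization. BMPR2, the type II BMP receptor on chromosome 2 (202376327 to 202567751, plus strand), had 3290, 1425 and 4120 in control samples and 2773, 5930 and 3171 in depleted samples. Here control replicate 2 was the lowest and depleted replicate 2 the highest, and the groups overlapped. Its log2 fold change was 0.48, with a 95% interval of -0.59 to 1.54 and an adjusted p of 0.65. After correction for exon length it was 0.36, and BMPR2, at 12502 exon bases, is the longest of the 10 genes. Over the other receptors and co-receptors, 10 of 13 listed were tested, 0 were called, and log2 fold changes ran from -0.73 to 1.26.

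SMAD6 encodes an inhibitory SMAD that is induced by BMP signaling and blocks it at the receptor. It had 119.1, 210.3 and 913.9 normalized counts in control samples and 141, 350.8 and 219.1 in depleted samples. Control replicate 3 was far above all other samples, and the depleted samples lay within the control range. The log2 fold change was -0.36, with a 95% interval of -1.99 to 1.27 and an adjusted p of 0.84. Without control replicate 3 it was 0.48, with an adjusted p of 0.51, so its sign rested on that sample. SMAD6 is on chromosome 15 at 66702236 to 66782849, on the plus strand.

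The 3 ID genes were each lower in depleted samples on average, but only ID2 passed the test in limma. ID2 had 714.3, 769.8 and 894.2 normalized counts in control samples and 119, 177.7 and 129.7 in depleted samples. Samples of a condition were close to each other, and the groups were far apart. The mean fell from 792.8 ± 92.1 to 142.1 ± 31.3 and was 5.58-fold higher in control samples, with a log2 fold change of -2.49 ± 0.31 (SE) and an adjusted p of 0.0031. The call was made in all 6 fits without a sample. ID2 is on chromosome 2 at 8678845 to 8684461, on the plus strand, and shares 6.55% of its exon bases with ID2-AS1 on the opposite strand. The strand setting used in counting is not given in the sources used here, so reads on those bases cannot be assigned with certainty.

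ID1 had 1802, 6916 and 2953 normalized counts in control samples and 1245, 834.7 and 959.2 in depleted samples. Every control sample was above every depleted sample, but control replicate 2 was well above the other control samples. The log2 fold change was -1.73 ± 0.47 (SE), with a 95% interval of -2.81 to -0.66 and an adjusted p of 0.07, and ID1 was not called. DESeq2 on recovered reads gave -1.92 with an adjusted p of 0.0028, and the value without control replicate 1 was -2.18 with an adjusted p of 0.043, in a range of 0.0028 to 0.23 over 18 alternatives. ID1 has the shortest exon sequence of the 10 genes, 1233 bases, on chromosome 20 at 31605283 to 31606515, plus strand. Correction for exon length gave a log2 fold change of -1.77 with an adjusted p of 0.0505.

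ID3 had 1405, 3316 and 2774 normalized counts in control samples and 332.2, 1359 and 1603 in depleted samples. Depleted replicate 3 was above control replicate 1, so the groups overlapped, and depleted replicate 1 was the lowest of all. The log2 fold change was -1.38 ± 0.61 (SE), with a 95% interval of -2.77 to 0.0025 and an adjusted p of 0.25. Without depleted replicate 1 it was -0.67, with an adjusted p of 0.49. ID3 is on chromosome 1 at 23557926 to 23559501, on the minus strand.

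Summed, the 3 ID genes came to 3921, 11002 and 6622 normalized counts in control samples and 1696, 2372 and 2692 in depleted samples. These sums did not overlap, and their means were 7182 ± 3574 and 2253 ± 508. Of all single genes tested, 12.1% had every depleted sample below every control sample. Most of each sum came from ID1 and ID3, which were not called, and ID1 made up 62.9% of it in control replicate 2. Exon lengths differ between the 3 genes, so the sums and shares compare samples and not genes. ID2 made up 18.2%, 7% and 13.5% of the sum in control samples and 7.02%, 7.49% and 4.82% in depleted samples. ID4, the remaining gene of the family, had 79, 122.4 and 267.6 normalized counts in control and 47.6, 365.2 and 445 in depleted samples. Depleted replicate 1 was the lowest of the 6 and the other depleted samples the highest, and ID4 was not called (log2 fold change 0.53, adjusted p 0.79).

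Every depleted sample was above every control sample in 3 of the 10 genes (13.5% of all genes tested), and below in 3 (12.1% of all genes tested). The 3 above were BMP4, FST and ACVR1C, and the 3 below were BMP5, ID1 and ID2. With 3 samples a group, the smallest p of an exact permutation test (two-sided) on a single gene is 0.1.

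**Figure D2:**
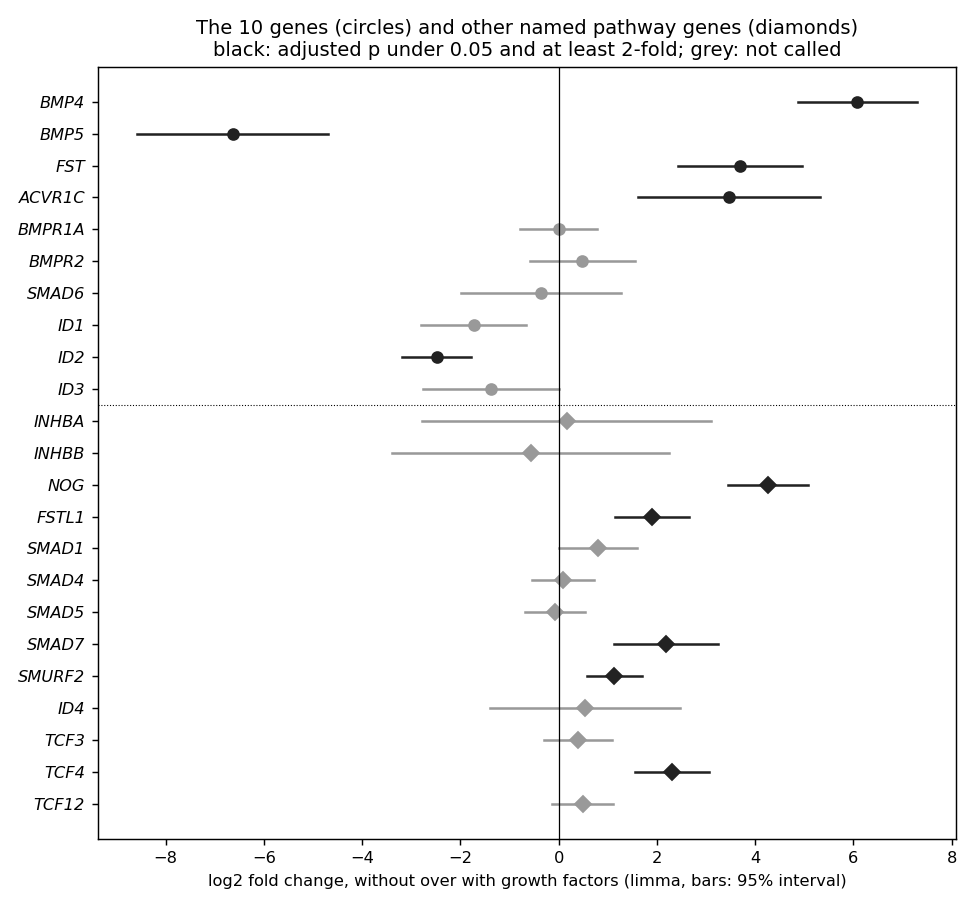
Log2 fold change, depleted over control, from limma with 95% intervals for the 10 genes (circles) and the other named pathway genes (diamonds), black where called and grey where not. BMP4 and BMP5 lie at 6.08 and -6.64, and the intervals of BMPR1A, BMPR2, SMAD6 and ID3 include 0.

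Levels of different genes were compared per kilobase of merged exon, which can exceed the length of the transcripts present, so the order is approximate. On that scale the ID genes led in control samples. The mean level there was 3155 ± 2176 normalized counts per kilobase for ID1, 1670 ± 659 for ID3 and 358.2 ± 41.6 for ID2. These were followed by BMPR2 at 235.6 ± 110, BMP5 at 101.3 ± 39.9, BMPR1A at 98.5 ± 34.9 and SMAD6 at 48.4 ± 50.8. FST at 3.85 ± 1.83, BMP4 at 3.01 ± 1.38 and ACVR1C at 1.7 ± 1.39 came last. Neighbours in this order overlapped in their sample ranges except ID3 and ID2, and SMAD6 and FST.

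In depleted samples the order was ID1 at 821.5 ± 171 normalized counts per kilobase, ID3 at 734.1 ± 451, BMPR2 at 316.6 ± 138 and BMP4 at 231 ± 125. Then came BMPR1A at 95.4 ± 20, ID2 at 64.2 ± 14.1, FST at 53.9 ± 20.1, SMAD6 at 27.7 ± 12.4 and ACVR1C at 20.2 ± 12.9, with BMP5 last at 1.15 ± 1.16. BMP4 thus stood at rank 9 of 10 in control and rank 4 in depleted samples, and BMP5 at rank 5 and rank 10. Neighbours overlapped except BMP4 and BMPR1A, and ACVR1C and BMP5.

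**Figure D3:**
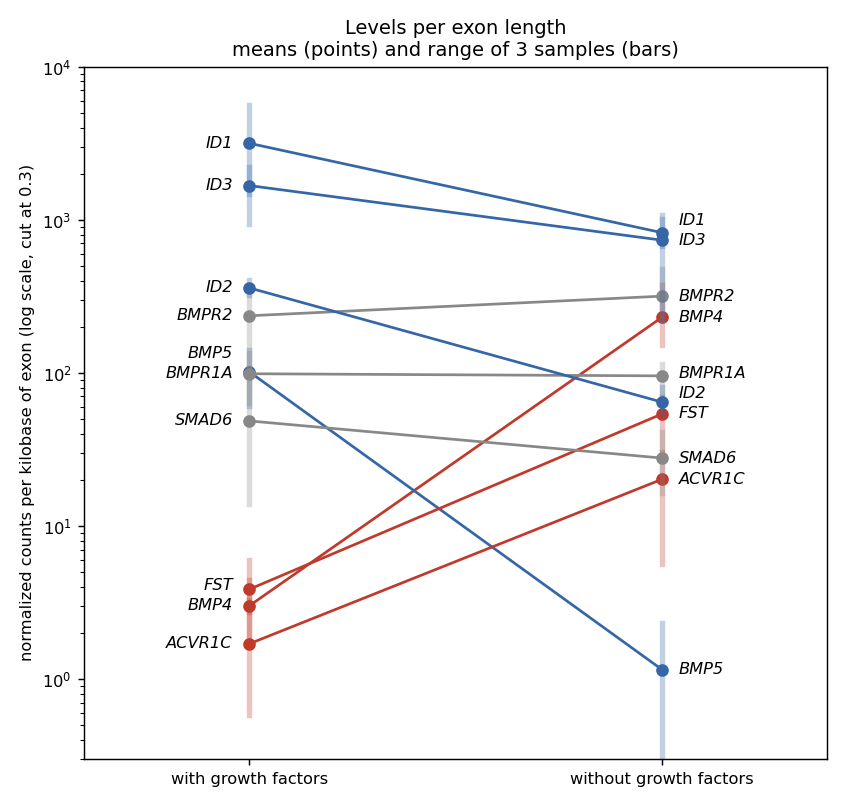
Mean normalized counts per kilobase of exon (log scale) of the 10 genes with and without growth factors, with bars for the range of 3 samples. Red lines mark means over 2-fold higher without growth factors, blue lines over 2-fold lower and grey lines the rest, and the lowest BMP5 sample, at 0, is off the axis. BMP4 moves from 3.01 to 231 and BMP5 from 101.3 to 1.15.

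The rest of the pathway was read from a list of 75 other genes in 7 groups, of which 53 were in the table and 49 were tested. Of these, 6 were called higher, against 4.36% of all genes, and 0 were called lower, against 1.97%. At an unadjusted p under 0.05, limma had 13 higher and 0 lower, and edgeR and DESeq2 also called 0 lower. Such a p was common, as SMAD1, at an unadjusted limma p of 0.049, ranked only 3369 by p among all 16988 genes tested. In all, 32 log2 fold changes were positive and 17 negative, with a median of 0.3 against -0.03 for all genes. Every depleted sample was above every control sample in 14 of the 49 genes (13.5% of all genes) and below in 1 (12.1% of all genes), which is SMURF1, a ubiquitin ligase for BMP SMADs, named here after its value was seen.

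Genes listed as secreted antagonists, not all of which encode secreted inhibitors, gave 3 of the 6 calls, among 9 tested of 17 listed. Of all genes tested, 4.36% were called higher. The other 6 genes of the list were not called. Of the 9 log2 fold changes, 7 were positive and 2 negative, and the median, 1.14, was the value of a gene not called. NOG encodes noggin, which binds BMP4 and other BMPs. It had 25.1, 29.9 and 33.4 normalized counts in control samples and 483.3, 664.8 and 603.7 in depleted samples. Its mean rose 19.8-fold, with a log2 fold change of 4.26 ± 0.36 (SE) and an adjusted p of 0.00069, and it was called in all 6 fits without a sample. FSTL1, a secreted follistatin-like protein, had 4341, 3879 and 2778 in control samples and 10677, 14442 and 15719 in depleted samples, a log2 fold change of 1.9 with an adjusted p of 0.012. The call of FSTL1 was lost without depleted replicate 2 (adjusted p 0.071), depleted replicate 3 (0.075) or with the length correction and the replicate block together (0.067). BMP4 and its binding antagonist NOG were both higher in every depleted sample than in any control sample. Such a separation was found for 13.5% of all genes tested, and both genes were chosen with results of these data known.

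Genes listed as activin ligands, which include related genes of the TGFβ superfamily that are not activin subunits, gave no call among 5 tested of 8 listed. INHBA, the activin A subunit that FST binds, had 1306, 2060 and 1078 normalized counts in control samples and 127.2, 5345 and 5919 in depleted samples. Depleted replicate 1 lay below all control samples and the other depleted samples above them. Its log2 fold change was 0.16, with an adjusted p of 0.97, and without depleted replicate 1 it was 1.98, with an adjusted p of 0.024, in a range of 0.024 to 0.99 over 18 alternatives. The ratio of INHBA to FST in normalized counts was 173.7, 125.6 and 137 in control samples and 1.48, 27.9 and 35.3 in depleted samples. It was lower in each depleted sample than in any control sample. FST had only 6, 28 and 8 reads in control samples, so those ratios are imprecise, and the lower ratios in part restate the rise of FST. INHBB had 600.3, 332.8 and 75.7 in control samples and 20.1, 504.9 and 436 in depleted samples, with an adjusted p of 0.85.

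Among SMADs and SMURFs, 2 of 9 tested were called higher, against 4.36% of all genes tested. Both encode negative regulators, but the inhibitory SMAD6 and the ubiquitin ligase SMURF1 were not called, at log2 fold changes of -0.36 and -0.35. SMAD7, an inhibitory SMAD of both the BMP and the TGFβ branch, had 124.1, 101.9 and 208.6 normalized counts in control samples and 345.1, 910.7 and 811.6 in depleted samples. Its log2 fold change was 2.19 with an adjusted p of 0.028. It was called in 2 of 6 fits without a sample and was lost without control replicate 1 (adjusted p 0.1), control replicate 2 (0.087), depleted replicate 2 (0.13) or depleted replicate 3 (0.13). SMURF2, a ubiquitin ligase that acts with inhibitory SMADs, had 1182, 1228 and 1321 in control samples and 2919, 2616 and 2656 in depleted samples, a log2 fold change of 1.13 with an adjusted p of 0.03. The call was made without control replicate 3 and lost without control replicate 1 (adjusted p 0.098), control replicate 2 (0.085), depleted replicate 1 (0.084), depleted replicate 2 (0.12) or depleted replicate 3 (0.14), and with the replicate block (0.14), in a range of 0.00067 to 0.14 over 18 alternatives. Of the SMADs that carry the signal, SMAD1 had a log2 fold change of 0.8 (adjusted p 0.25), SMAD5 of -0.07 (0.92) and SMAD4 of 0.08 (0.91), and for SMAD5 and SMAD4 the sign changed with quantile normalization and with the length correction, respectively. The 6 tested of 8 other BMP target genes gave no call, with a median log2 fold change of 0.56.

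**Figure D4:**
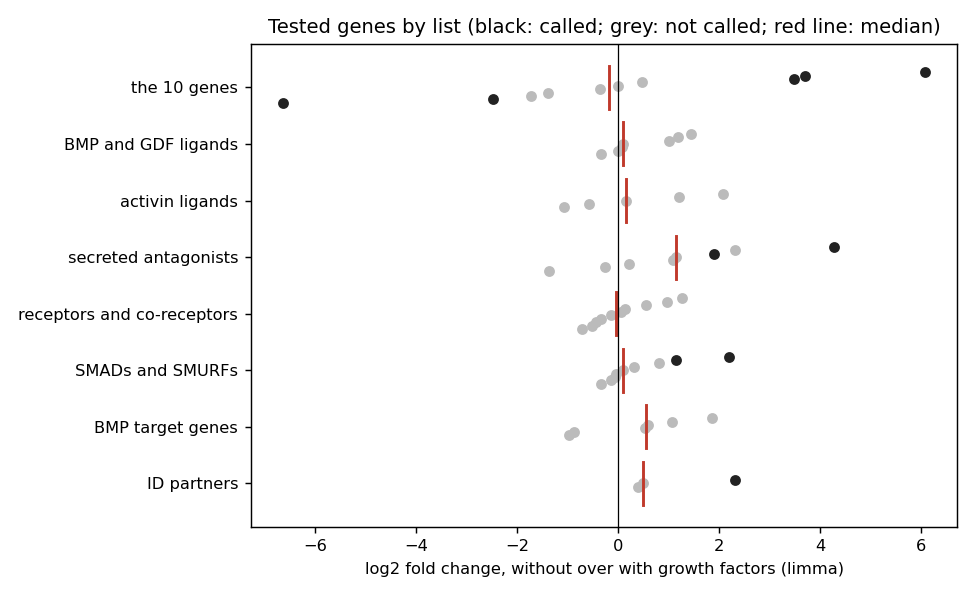
Log2 fold changes, depleted over control, from limma for the tested genes, by list, with called genes in black, others in grey and each list's median as a red line. The medians are over all tested genes of a list, of which 1 secreted antagonist is not drawn. The 10 genes spread from -6.64 to 6.08. The genes listed as secreted antagonists have the highest median of the lists, at 1.14, which is the value of a gene not called.

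The E protein genes, whose products ID proteins bind, were set beside the ID genes. TCF4 had 345.9, 189.8 and 344.3 normalized counts in control samples and 1336, 1696 and 1212 in depleted samples. Its log2 fold change was 2.3 ± 0.33 (SE), with an adjusted p of 0.0057, and it was called in all 6 fits without a sample. TCF3 and TCF12 were not called, at 0.39 (adjusted p 0.55) and 0.49 (adjusted p 0.38). The sum of the 3 E protein genes was 2959, 3012 and 3160 normalized counts in control samples and 4431, 5860 and 5161 in depleted samples. TCF4 made up 11.7%, 6.3% and 10.9% of it in control and 30.2%, 28.9% and 23.5% in depleted samples. Counts of long genes hold more reads per transcript, so these shares compare samples and not genes.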

How the data were processed

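Total RNA of 6 MCF10A samples was depleted of ribosomal RNA, made into stranded libraries and sequenced as single-end reads of 100 bases. The submitters' processing notes name cutadapt 1.6, TopHat2, HTSeq 0.6, DESeq2 1.8.1 and R 3.2.0, with mapping to hg38 and counting on Gencode v22. What the authors deposited is a normalized signal, the read counts of each gene divided by DESeq2 size factors, with no division by length. Whole reads were recovered for 100% of values (tolerance 0.01 reads). They came to 7472418 to 28672630 reads on genes per sample, and the 3-read floor covers counting error only, while the 95% intervals of fold changes rest on the spread between samples. Gencode v44 (hg38) gave coordinates and the names of 18913 of 19198 genes. Levels per kilobase use merged exons of that annotation.

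Groups were taken from the sample labels. The 3 depleted samples were tested against the 3 control samples in limma 3.58.1 under R 4.3.3, by lmFit and a trended eBayes, on log2(normalized count + 1). Benjamini-Hochberg adjustment covered the 16988 genes whose mean reached 10. The procedure was tested on simulated data. Alternatives included pseudocounts of 0.5 and 10, no filter or a minimum mean of 50, quantile normalization, totals made equal, an untrended eBayes, the replicate block, leaving out each sample, a correction for exon length, edgeR 4.0.16 (quasi-likelihood) and DESeq2 1.42.0 on recovered reads. The length correction with the replicate block was chosen after seeing the data. edgeR called 971 genes and DESeq2 2112.

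The 10 genes and the pathway lists were chosen with earlier results of these data known. The genes named are the 10, every listed pathway gene that was called except 1 that is not reported here, and INHBA, INHBB, NOG, SMAD1, SMAD4, SMAD5, SMAD7, ID4, TCF3, TCF4 and TCF12. SMURF1 was named after its value was seen. Python 3.11.15 and matplotlib 3.10.9 were used for tables and figures.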

Additional observations from a re-analysis of the deposited data

How the results depend on the processing

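The directions of BMP4, BMP5, FST, ACVR1C, BMPR2, ID1, ID2 and ID3 were the same under all 18 alternatives, and the calls of BMP4, BMP5 and ID2 were made under each. ACVR1C was also lost with a mean of at least 50 (adjusted p 0.054) and without the trend (0.058), which also ended the calls of SMAD7 (0.052) and SMURF2 (0.069). The causes were not tested. Leaving out 1 sample gave 1 to 3 of the 10 genes called higher, the lowest without depleted replicate 2, and 2 to 7 other pathway genes called higher, with 2 without depleted replicate 2 and 3 without depleted replicate 3. All genes called numbered 1076, 2112 with DESeq2 and 453 to 2474 without 1 sample. Log2 fold changes turned sign for BMPR1A, at 0.044 after rescaling and 0.080 after quantile normalization and from -0.28 to 0.25 without 1 sample, and for SMAD6 (-0.98 to 0.48), INHBA (-0.79 to 1.98), INHBB (-1.42 to 0.92), SMAD5 (-0.18 to 0.010) and ID4 (-0.053 to 1.55) without 1 sample. SMAD5 was at 0.031 after quantile normalization. SMAD4 was at -0.088 with the length correction, with and without the replicate block, and from -0.11 to 0.23 without 1 sample. Over 24 genes of these lists, 386 of 431 alternative values kept direction and side of the threshold.

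With the replicate block, 967 genes were called, 3 and 2 of the 10 genes were called higher and lower, and SMURF2 was lost (adjusted p 0.14). With the length correction and the replicate block, 3 other pathway genes were called higher. Same-numbered samples had correlations of deviations of -0.32 to -0.07, and differently numbered ones of -0.07 to 0.29, and no sample correlated best with its own number. Levels under 6.71 normalized counts cannot be told from 0 in the shallowest sample.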
